A study of Homo sapiens with 4 samples.

Results

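The transcription factor ATF4 and 9 further genes of the integrated stress response and the unfolded protein response were followed in SNU638 cells. They were chosen by symbol as ATF4, ATF3, DDIT3, ASNS, CHAC1, TRIB3, SESN2, PSAT1, HSPA5 and XBP1, which are 10 of the 46427 genes in the count table. All 10 were listed by symbol and NCBI Gene ID, and all 10 passed the filter on low counts that left 17781 genes.

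SNU638 is an established human gastric cancer cell line. Bulk poly(A) RNA was sequenced from cells with a control vector or with a vector for YTHDF1, a reader of N6-methyladenosine in RNA, with 2 libraries each, replicate 1 and replicate 2. Both groups were serum-starved over 24 h, and IFN‐γ followed at 10 ng/ml, so that no library came from untreated cells and a response of these genes to IFN‐γ was not measured. The labels give 8 h of IFN‐γ, whereas the paper's legends give 24 h. According to the paper's methods YTHDF1 was introduced by plasmid transfection, and each library pooled RNA of a whole culture. Fewer cells that express a gene and less of its RNA per cell cannot be told apart in such samples.

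ATF4 is translated preferentially when eIF2α is phosphorylated by kinases that sense amino acid shortage, misfolded protein in the endoplasmic reticulum (ER), double-stranded RNA or heme deficiency. The factor then binds the promoters of genes for amino acid synthesis, transport and redox balance, and of further transcription factors such as ATF3 and DDIT3. Separate arms of the unfolded protein response run through IRE1, which splices XBP1 mRNA, and through ATF6, and raise ER chaperones such as HSPA5. Since ATF4 is controlled largely by translation, and XBP1 by splicing, a gene-level RNA count reads only part of either factor's activity.

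The promoters of some members carry the letters of sequence elements by which such factors are known to act. These are shown as background and do not assign a member to an arm. The window of 250 bases before to 50 bases after each RefSeq start on GRCh38.p14 was searched on both strands for TGATGNAA, the core of the element bound by C/EBP-ATF dimers, and for the ER stress element, which is CCAAT and CCACG with 9 bases of any kind between them. The letters TGATGNAA were found for 3 of the 10 members, against 4.46% of 27305 genes, and the ER stress element for 2 of 10, against 0.0916% of genes. The 30 bases around each match are written 5′ to 3′ on the strand of the gene, with the match in capitals, and the CHAC1 match lies in the reverse orientation.
ASNS, chr7:97872458-97872487, minus strand: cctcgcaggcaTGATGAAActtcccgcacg
ATF3, chr1:212565205-212565234, plus strand: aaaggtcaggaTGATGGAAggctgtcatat
CHAC1, chr15:40953251-40953280, plus strand: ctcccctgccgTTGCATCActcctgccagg
HSPA5, chr9:125241385-125241414, minus strand: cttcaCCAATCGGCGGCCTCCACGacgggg
XBP1, chr22:28800597-28800626, minus strand: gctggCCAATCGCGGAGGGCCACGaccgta
All 5 lie upstream of an annotated start. The ASNS match runs from −68 to −61 relative to the start site, and that of HSPA5 from −66 to −48. A match describes the letters only and is not evidence of binding, and no match says only that the letters are not in this window.

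The total count was between 57398137 and 60864942 per library. YTHDF1 stood at 82.2 and 80.3 CPM (counts scaled to a common library size by TMM) in the Control libraries and at 16494.5 and 2628 CPM in YTHDF1 replicates 1 and 2, so that the libraries of the YTHDF1 vector differed 6.28-fold in the transgene. The libraries stood apart by replicate number: Pearson's r of log2 CPM over genes was 0.885 and 0.888 between libraries of the same vector and 0.985 and 0.983 between libraries of the same number. The sample titles call the numbers biological replicates. They do not say what separates number 1 from number 2 (a day, a batch or a culture), so those cannot be told apart. All 6 epithelial markers were detected, at a summed 3917 to 6720 CPM, although CLDN4 was at 55.0 and 56.6 CPM in the libraries numbered 1 and at 0.934 and 0.994 CPM in those numbered 2. The 5 leukocyte markers summed to 5.85 to 6.33 CPM (mainly CD68), the 5 fibroblast markers to 6.41 to 11.8 CPM (mainly COL1A1, with COL1A2 at 0 counts in every library) and the 4 endothelial markers to 0.232 to 0.934 CPM. The part of these marker differences in the members' values was not tested.

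The 3 transcription factors of the set are ATF4, ATF3 and DDIT3. ATF4 (chr22:39520559-39522686) was at 436 CPM in Control replicate 1, 391.9 CPM in Control replicate 2, 459 CPM in YTHDF1 replicate 1 and 385 CPM in YTHDF1 replicate 2. The values of the other members follow in that order. ATF3 (chr1:212565407-212620777), a stress-induced repressor and activator of the same bZIP class, was at 177 and 197 CPM in Control and at 167 and 193 CPM in YTHDF1. DDIT3 (chr12:57516588-57520517), which encodes the pro-apoptotic factor CHOP, was at 39.5 and 29.4 CPM in Control and at 44.5 and 30.4 CPM in YTHDF1. For each of these factors the Control and YTHDF1 values overlapped, while both libraries numbered 2 lay on the same side of both libraries numbered 1, below for ATF4 and DDIT3 and above for ATF3.

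The amino acid genes differed from each other in how far the libraries spread. ASNS (chr7:97851677-97928441), asparagine synthetase, was at 144 and 79.7 CPM in Control and at 140.1 and 80.4 CPM in YTHDF1. PSAT1 (chr9:78297125-78330093), the aminotransferase of serine synthesis, was at 162 and 154 CPM in Control and at 164 and 152 CPM in YTHDF1. ASNS thus had the widest range of the 10 members, 0.86 on the log2 CPM scale, and its values followed the replicate number within each vector.

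The remaining targets act in feedback and redox control. TRIB3 (chr20:380760-397559), a pseudokinase that restrains ATF4 and AKT signalling, was at 61.3 and 100.5 CPM in Control and at 72.9 and 108 CPM in YTHDF1. SESN2 (chr1:28259518-28282491), a leucine sensor that inhibits mTORC1, was at 42.2 and 37.3 CPM in Control and at 49.4 and 42.0 CPM in YTHDF1. CHAC1 (chr15:40953471-40956512), which degrades glutathione, was at 10.2 and 10.6 CPM in Control and 10.97 and 11.2 CPM in YTHDF1, on 601 to 675 counts per library. TRIB3 was the member whose libraries numbered 2 stood furthest above those numbered 1, the direction opposite to ASNS.

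HSPA5 (chr9:125234853-125241343), the ER chaperone BiP, was at 753 and 737 CPM in Control and at 865 and 725 CPM in YTHDF1. XBP1 (chr22:28794560-28800569) was at 68.6 and 68.1 CPM in Control and at 73.8 and 68.3 CPM in YTHDF1. In both ER genes YTHDF1 replicate 1 was the highest library and the other 3 lay close together. The gene-level counts of XBP1 do not separate its spliced from its unspliced mRNA.

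**Figure D1:**
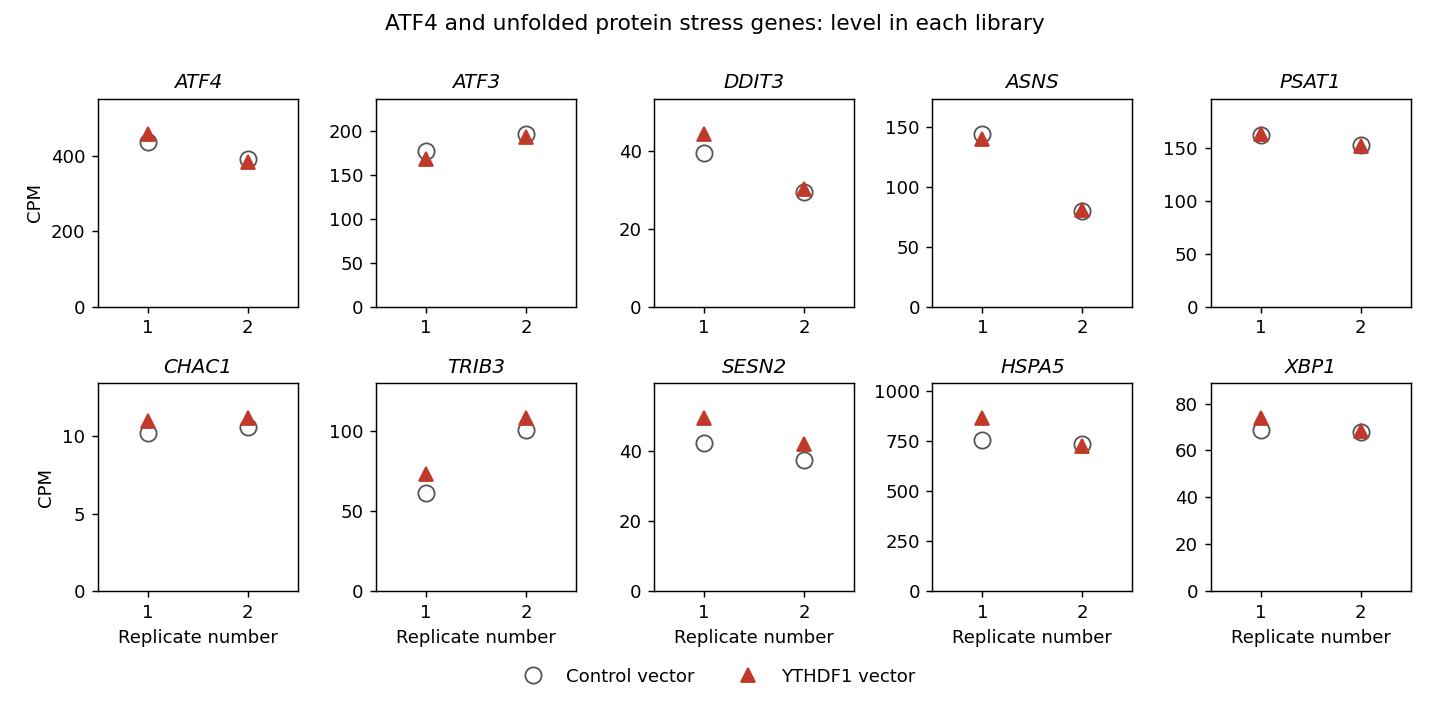
TMM-scaled CPM of the 10 members (vertical axis, linear from 0, a panel for each gene) by replicate number (horizontal axis), with open circles for Control and triangles for YTHDF1 and a point for each library. ASNS and TRIB3 separate by replicate number in opposite directions, from 79.7 to 144 CPM and from 61.3 to 108 CPM, while CHAC1 stays between 10.2 and 11.2 CPM.

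Levels can be set beside each other between genes only per length. On CPM per kilobase of the median transcript, averaged over the 4 libraries, ATF4 was at 243 and HSPA5 at 197, followed by ATF3 at 95.7, PSAT1 at 87.8, ASNS at 58.4, TRIB3 at 42.5, XBP1 at 38.3, DDIT3 at 36.4 and SESN2 at 12.4 CPM per kilobase. CHAC1 had no matched transcript length and was left out of this order. At the median length the libraries of ATF4 (224 to 267) and HSPA5 (186 to 221) did not overlap. With the longest ATF4 transcript, of 2019 bases, the mean of ATF4 was 207, above the HSPA5 mean but within the range of the HSPA5 libraries. The longest transcripts put TRIB3 (34.3) below XBP1 (37.7). The libraries of ATF3 and PSAT1 overlapped, as did those of ASNS and TRIB3, of TRIB3 and XBP1, and of XBP1 and DDIT3.

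The first comparison asked whether these genes differed between cells with the YTHDF1 vector and Control. By edgeR's quasi-likelihood test 0 of the 10 members were called under the paper's thresholds (a log2 fold change of 0.5 or more either way, with an unadjusted p under 0.05), against 0.101% of all genes tested (18 of 17781). The paper reports more genes than this at the same thresholds, both higher and lower in YTHDF1, and the reason was not tested. The number of members with an unadjusted p under 0.05 at any fold change was also 0 in this fit. DESeq2's Wald test and limma-voom called 0 members, but like the edgeR fit they had no term for the replicate number. With Benjamini-Hochberg adjustment of edgeR's p every member had an adjusted p of 1.00, and 0 of 17781 genes had one under 0.05. YTHDF1 itself, with a log2 fold change of 6.88, had an unadjusted p = 0.00613 in the same fit and did not pass after adjustment. Only 24 of 17781 genes had an unadjusted p under 0.05, so the 0 calls do not show that the members were unchanged. The log2 fold change was above 0 for 8 of the 10 members, against 52.2% of all genes, and the median over the members was 0.07 against 0.00 over all genes.

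The intervals of this fit are wide where the replicate numbers differ, since the model has no term for the number and its difference enters the error. ATF4 itself was at 414 ± 31.2 CPM in Control and 422 ± 52.7 CPM in YTHDF1 (SD, n = 2 each), a log2 fold change of 0.03 (SE 0.14, 95% confidence interval −0.37 to 0.43). The interval was narrowest for XBP1, with a log2 fold change of 0.06 (−0.18 to 0.30), and for PSAT1, with 0.00 (−0.26 to 0.26). It was widest for ASNS, with −0.02 (−1.29 to 1.24), TRIB3, with 0.16 (−0.83 to 1.16), and DDIT3, with 0.12 (−0.67 to 0.91). These last 3 genes are the members in which the libraries numbered 1 and 2 differed most.

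SESN2 had the largest log2 fold change of the members, 0.20 (SE 0.14, unadjusted p = 0.223 and adjusted p = 1.00 in edgeR's quasi-likelihood test). That SE and p include the difference between the numbers, and the values with the number as a block are given in the closing section. SESN2 was higher in YTHDF1 by 0.23 on the log2 scale within replicate number 1 and by 0.17 within number 2. DDIT3, CHAC1, TRIB3 and XBP1 were also higher in YTHDF1 within both numbers, which makes 5 of 10 members against 25.9% of all genes, and ATF3 was lower within both, against 23.3% of all genes. CHAC1 was the only member whose vectors did not overlap (1 of 10, against 11.5% of all genes in either direction). Both its YTHDF1 libraries lay above both Control libraries, as for 5.67% of all genes, and its log2 fold change was 0.09 (SE 0.17).

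Within replicate number 1, in which YTHDF1 was most abundant, the YTHDF1 library stood above Control by 0.20 for HSPA5, 0.25 for TRIB3, 0.23 for SESN2, 0.17 for DDIT3, 0.11 for CHAC1, 0.10 for XBP1, 0.08 for ATF4 and 0.01 for PSAT1, as differences of log2 CPM, and was at −0.08 for ATF3 and −0.04 for ASNS. Within replicate number 2 the same differences were −0.02, 0.11, 0.17, 0.05, 0.08, 0.01, −0.03 and −0.01, and −0.03 for ATF3 and 0.01 for ASNS. HSPA5, ATF4, PSAT1 and ASNS thus differed in sign between the numbers, and the other 6 members did not. Whether the differences between the numbers follow the amount of the transgene was not tested, since each number holds 1 library of each vector.

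**Figure D2:**
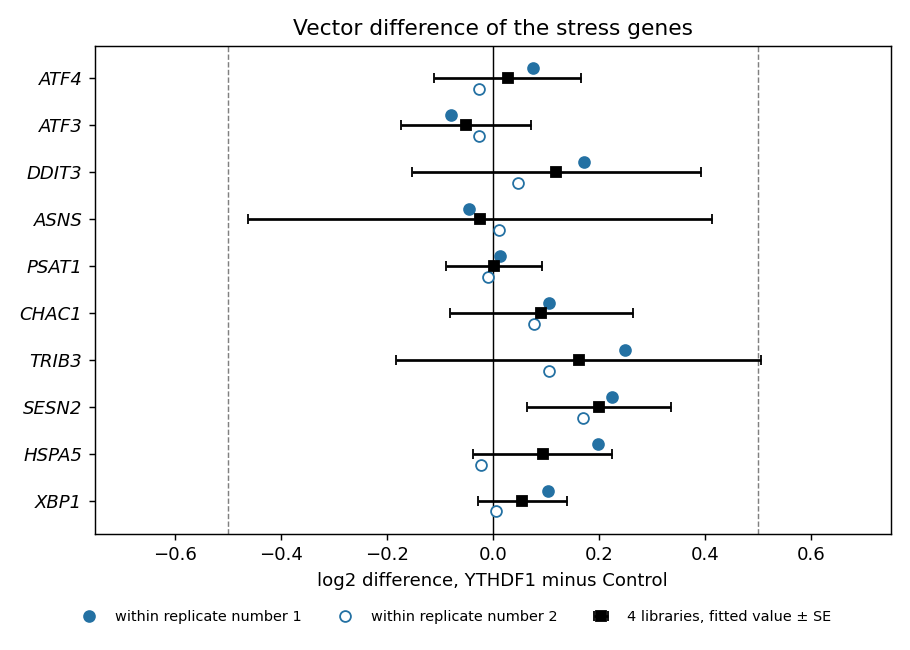
Log2 fold change of each member in YTHDF1 against Control (horizontal axis), with a bar of ± 1 SE from edgeR's quasi-likelihood fit, and the differences of log2 CPM within replicate numbers 1 and 2 as filled and open points. Dashed lines mark a log2 fold change of 0.5 either way. The bar of ASNS, with an SE of 0.44, is the longest, and SESN2, at 0.20, has the fitted value furthest from 0.

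The second comparison set the libraries numbered 2 against those numbered 1, with the vector as a term in the model. Of the 10 members 7 were called at a Benjamini-Hochberg adjusted p under 0.05 by edgeR's quasi-likelihood test, against 51.8% of all genes tested. ATF3 and TRIB3 were higher in number 2 (2 of 10, against 23.0% of all genes), and ATF4, DDIT3, ASNS, SESN2 and HSPA5 were lower (5 of 10, against 28.7%). The numbers did not overlap for 9 of the 10 members, against 77.1% of all genes, and the exception was CHAC1. The median absolute log2 fold change was 0.19 over the members and 0.31 over all genes tested.

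ASNS was lower in number 2 by 1.78-fold, with a log2 fold change of −0.83 (SE 0.046, adjusted p = 4.13e-07 by edgeR's quasi-likelihood test), and by −0.86 in Control and −0.80 in YTHDF1. TRIB3 was higher by 1.56-fold, with a log2 fold change of 0.64 (SE 0.052, adjusted p = 5.81e-06 in the same fit), and by 0.71 in Control and 0.57 in YTHDF1. These were the 2 called members whose log2 fold change reached 0.5 either way, against 25.7% of all genes. A pair of genes usually listed together as ATF4 targets thus differed between the same libraries in opposite directions.

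DDIT3 was lower in number 2 by 1.40-fold (log2 fold change −0.49, SE 0.063, edgeR's adjusted p = 1.34e-04). ATF4 was lower by 1.15-fold (log2 fold change −0.20, SE 0.044, edgeR's adjusted p = 0.00317), and ATF3 was higher by 1.13-fold (log2 fold change 0.18, SE 0.044, edgeR's adjusted p = 0.00665). The 3 factors therefore did not move together, since ATF3 was higher in the libraries where ATF4 and DDIT3 were lower. Without Control replicate 2, ATF3 was no longer called, and without YTHDF1 replicate 2 neither ATF3 nor ATF4 was.

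SESN2 and HSPA5 passed the threshold less securely. SESN2 was at a log2 fold change of −0.21 (SE 0.056, edgeR's adjusted p = 0.0121) and lost its call in 3 of the 4 fits that left out a library, which had no vector term. HSPA5 was at −0.14 (SE 0.054, edgeR's adjusted p = 0.0491), with −0.03 in Control and −0.25 in YTHDF1, and lost its call in 6 of 7 other settings. PSAT1 (−0.09, adjusted p = 0.103), XBP1 (−0.06, adjusted p = 0.336) and CHAC1 (0.04, adjusted p = 0.738) did not pass edgeR's test.

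**Figure D3:**
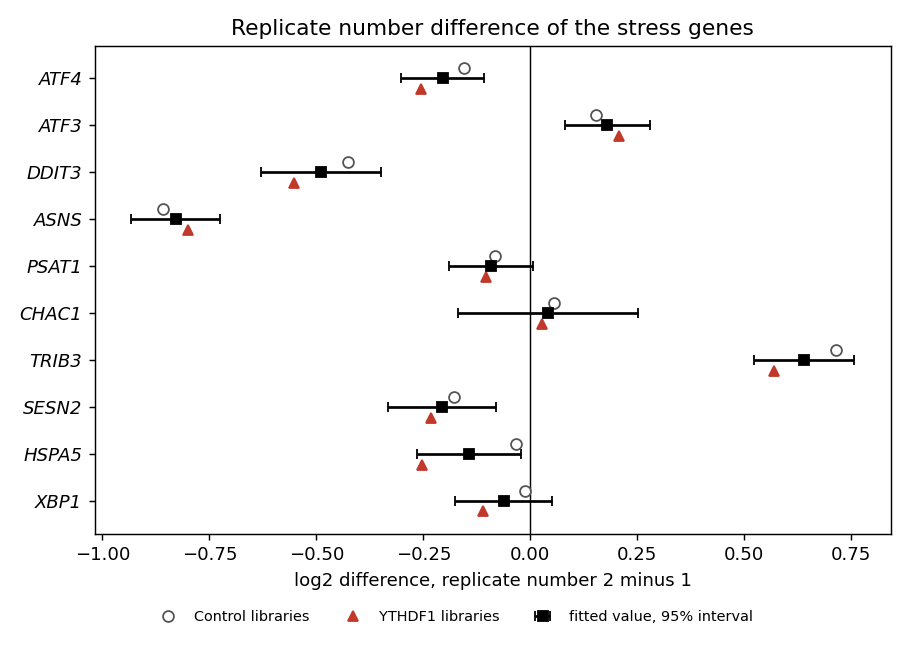
Log2 fold change of each member in the libraries numbered 2 against those numbered 1 (horizontal axis) with its 95% confidence interval, beside the difference within Control (circles) and within YTHDF1 (triangles). ASNS at −0.83 and TRIB3 at 0.64 lie furthest from 0, and in both the Control and YTHDF1 differences lie on the same side.

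The ratio of members within a library does not depend on the scaling of that library. The count of TRIB3 over that of ASNS was 0.424 and 1.26 in the Control libraries and 0.520 and 1.34 in the YTHDF1 libraries, in the order of their numbers. TRIB3 over DDIT3 was 1.55 and 3.42 in Control and 1.64 and 3.56 in YTHDF1. DDIT3 over ATF4 was 0.0906 and 0.0750 in Control and 0.0969 and 0.0789 in YTHDF1. All 3 ratios were closer between vectors of one number than between numbers of one vector.

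Of 42 further genes usually given as ATF4 targets, in lists for amino acid synthesis and one-carbon metabolism, amino acid transport, tRNA synthetases and stress regulators, 40 were tested. In the vector comparison 0 of the 40 were called, against 0.101% of all genes, and the median log2 fold change was 0.01, against 0.00 over all genes. In the replicate number comparison 23 were lower in number 2 and 4 were higher, against 28.7% and 23.0% of all genes, and the median log2 fold change was −0.26, against −0.01 over all genes. Most of these targets that passed the test lay on the side of ATF4 and ASNS rather than that of TRIB3 and ATF3. The lists were chosen with earlier results of these data known, and whether the targets share a shift was not tested.

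Among these ATF4 targets, the gene furthest from 0 after STC2 was a transporter. SLC38A2, a glutamine and small neutral amino acid transporter, was at 659 and 256 CPM in Control and at 770 and 254 CPM in YTHDF1 (log2 fold change −1.48, SE 0.057, edgeR's adjusted p = 3.08e-08). SLC1A4, a serine and alanine transporter, was higher in number 2 (log2 fold change 0.38). Of the 8 transport genes 4 were lower in number 2 and 2 were higher, against 28.7% and 23.0% of all genes.

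In the synthesis list of 10 genes 4 were lower and 1 was higher, against 28.7% and 23.0% of all genes. PYCR1, the last enzyme of proline synthesis, was at 176 and 95.4 CPM in Control and at 164 and 103 CPM in YTHDF1 (log2 fold change −0.78), close to the change of ASNS. ALDH1L2, a mitochondrial folate enzyme, was the 1 higher gene (log2 fold change 0.81), on 108 to 217 counts per library.

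Of 12 tRNA synthetases 7 were lower in number 2, with MARS1 at a log2 fold change of −0.71, and 1 was higher. Over all genes 28.7% were lower and 23.0% higher, and the same shares stand beside the stress regulators that follow. The 1 higher synthetase was WARS1, which is also a well-known IFN‐γ target, at 1566 and 2430 CPM in Control and at 1638 and 2431 CPM in YTHDF1 (log2 fold change 0.60). Of the 10 stress regulators tested 8 were lower and 0 were higher in edgeR's test, with STC2, a secreted glycoprotein, at 36.1 and 0.141 CPM in Control and at 30.5 and 0.133 CPM in YTHDF1. The smallest called change in that list was that of GDF15, a stress cytokine, with a log2 fold change of −0.24.

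Upstream of ATF4, 15 genes for the eIF2α kinases, the subunits of eIF2 and eIF2B and the phosphatase cofactors were tested. Of these 5 were lower in number 2, 1 was higher and 9 did not pass the test, against 28.7% lower and 23.0% higher over all genes. PPP1R15B, the constitutive cofactor that dephosphorylates eIF2α, was at 103 and 71.4 CPM in Control and at 111 and 73.9 CPM in YTHDF1 (log2 fold change −0.56). The 1 higher gene was EIF2AK4, which encodes the amino acid sensor GCN2, with a log2 fold change of 0.16.

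Of the genes that act beside HSPA5 and XBP1, 5 of 7 ER stress sensors and their processing enzymes were lower in number 2 and 0 were higher, in edgeR's test that called 28.7% of all genes lower and 23.0% higher. The same shares stand beside the ER lists that follow. ERN1, which encodes IRE1, had a log2 fold change of −0.31 and CREB3L2 one of −0.23. Among 14 ER chaperones and folding enzymes 5 were lower and 5 higher, from HSP90B1 (906 and 590.1 CPM in Control, 1005 and 577 CPM in YTHDF1, log2 fold change −0.71) to MANF (0.32). Among 11 genes of ER-associated degradation and translocation 3 were lower, with HERPUD1 at −0.46, and 2 were higher, with EDEM1 at 0.73. HSPA5, with −0.14, lay between the extremes of the chaperone list.

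In the vector comparison 0 genes of these ER lists were called, against 0.101% of all genes. All 14 chaperones had a log2 fold change above 0, with a median of 0.05, against 52.2% of all genes. Within replicate number 1 the difference of log2 CPM was above 0 for 12 of the 14 with a median of 0.11, against 52.4% of all genes, and within number 2 for 4 of the 14 with a median of −0.01, against 49.0%. HSPA5 showed the same pattern, at 0.20 within number 1 and −0.02 within number 2. The sign shared by all 14 was thus not seen within number 2 alone.

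Other stress programs were read beside the members in the same libraries, again against 28.7% of all genes lower and 23.0% higher. Of 10 cytosolic and mitochondrial heat shock genes 4 were lower in number 2 (HSPB1 at −1.27) and 4 were higher (HSPA8 at 0.32). Of 8 NRF2 targets, which answer oxidative stress and share the cystine transporter SLC7A11 with the transport list, 4 were lower (NQO1 at −0.82) and 3 were higher (GCLM at 0.25). Of 9 p53 targets 3 were lower (GADD45A at −0.45) and 5 were higher (TP53I3 at 0.63). Called genes lay on both sides in each of these 3 lists, and the difference from the ATF4 targets was not tested.

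**Figure D4:**
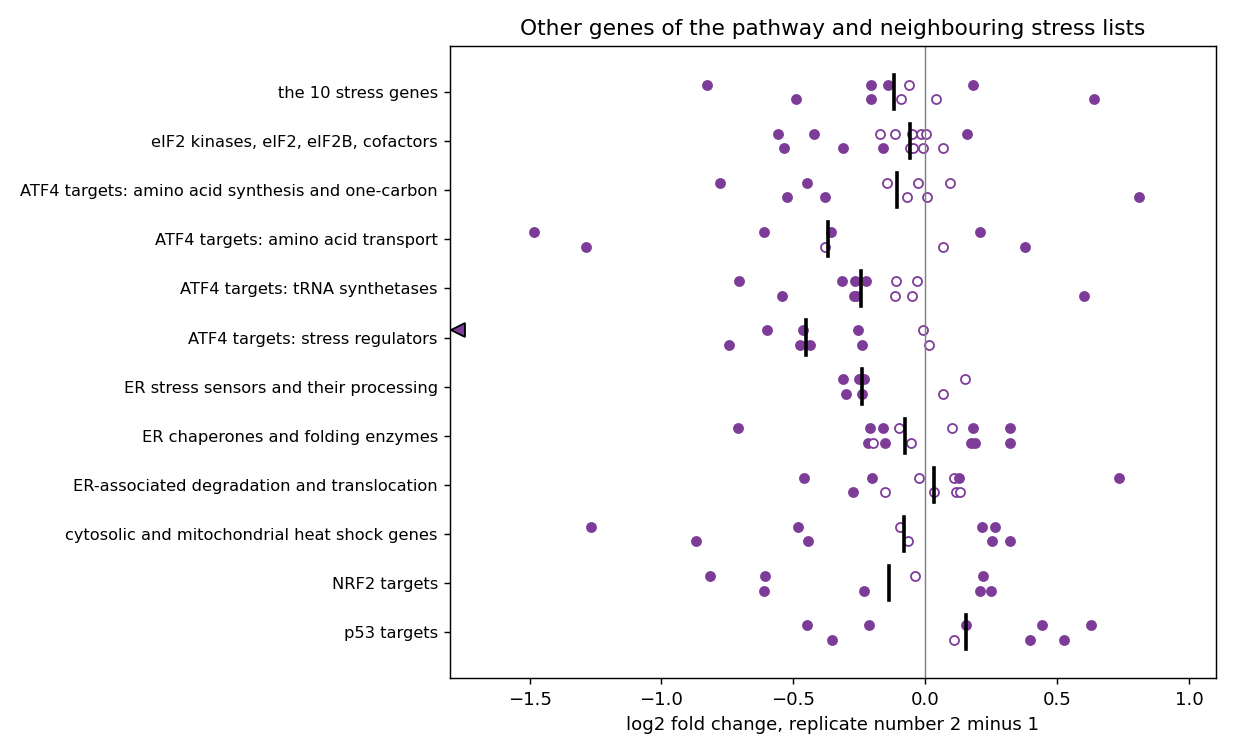
Log2 fold change of each tested gene of the stress lists in the libraries numbered 2 against those numbered 1 (horizontal axis), with filled points for an adjusted p under 0.05 and a bar at each list's median. The stress regulator list has its median at −0.45 and the p53 list at 0.16, and STC2, at −7.90, is drawn at the left edge.

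The genes whose pattern over the 4 libraries was most like that of ATF4 were sought among 9991 tested genes with a mean of at least 10 CPM. By the Euclidean distance of log2 CPM, centred for each gene, they were DDX18 (0.0073), AGPS (0.0075) and ZKSCAN1 (0.010), and 925 genes lay within 0.1 of ATF4. For ASNS they were LYRM1 (0.026), TCF25 (0.032) and PPM1D (0.034), and 55 genes lay within 0.1. With 4 libraries that stood apart mainly by replicate number, the patterns of ATF4 and ASNS were each shared by genes outside the stress lists.

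Reads of near-identical copies and overlapping genes touch some of these values. The 14 listed pseudogene copies of the members had at most 46 counts in any library, or 0.198% of the parent gene's count. CZ1P-ASNS, a read-through gene that overlaps ASNS on the same strand, was counted 538 and 47 times in Control and 80 and 26 times in YTHDF1, up to 6.26% of the ASNS count. With its counts added to ASNS, the log2 fold change of ASNS was −0.07 between the vectors and −0.87 between the numbers. DDIT3 overlaps the end of MARS1 on the opposite strand by 65 bases, and the strand setting of the counting is not given in the sources used here, so reads in that stretch cannot be assigned to either gene.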

How the data were processed

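Poly(A) RNA libraries from 2 Control and 2 YTHDF1 samples of SNU638 were analysed. The authors deposited counts, whole numbers of reads per gene, without normalization. The submitters' processing notes name Trimmomatic, HISAT2 and GRCh38, and the labels' protocol gives a stranded mRNA kit, whereas the counting tool, its strand setting and the annotation release are not given in the sources used here. Total counts were 57398137 to 60864942 per library.

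Counts were filtered with filterByExpr, scaled by TMM and compared with the quasi-likelihood test of edgeR 4.0.16 in R 4.3.3, with Benjamini-Hochberg adjustment over 17781 genes. The vector model held the vector only. The replicate number model held vector and number. Thresholds in the vector comparison were those of the paper, and the paper gives no adjustment of that p. CPM were computed on TMM-scaled library sizes, with a prior count of 0.5 for differences of log2 CPM. Standard errors are the log2 fold change divided by the root of F. P-values measure only the spread between these libraries. The sample titles call them biological replicates, but that spread may be technical in part or whole. The 2 libraries of each vector differed by far more than sampling noise and were counted separately. Chi-square over its degrees of freedom was 149 for the Control pair and 183 for the YTHDF1 pair. The value of the YTHDF1 pair includes the counts of YTHDF1 itself, 971190 in replicate 1 and 158662 in replicate 2.

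Promoter sequences and gene positions came from RefSeq (GRCh38.p14), matched by Gene ID for all 10 members, with 17 promoter windows. The count table carries no coordinates. Transcript lengths came from GENCODE release 29 for 9 of the 10 members. The members and lists were chosen with earlier results of these data known. Named genes are the members, YTHDF1, any list gene called between the vectors, the highest and lowest list gene called between the numbers, and the 3 genes nearest in pattern to ATF4 and to the member of widest range.

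Alternatives were the size factors and the Wald test of DESeq2 1.42.0, limma-voom (limma 3.58.1), no filter, a minimum of 10 counts in each library, YTHDF1 taken out before scaling, the replicate number as a block, no vector term, other thresholds and each library left out. The procedure was tested on simulated data. Figures were drawn with matplotlib 3.10.9 in Python 3.11.15.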

Additional observations from a re-analysis of the deposited data

How the results depend on the processing

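Across the alternatives 0 members were called between the vectors. Genes called there numbered 18, and 82 with no filter, 0 at an adjusted p under 0.05 with the fold threshold, and 47 to 60 with a library left out, where 1 group holds 1 library, assumed to vary like the others. With 1 library left out, the log2 fold change between the vectors changed sign for ASNS (−0.48 to 0.47), ATF3 (−0.16 to 0.050), ATF4 (−0.10 to 0.14) and DDIT3 (−0.18 to 0.36). The same was seen for HSPA5 (−0.037 to 0.21), PSAT1 (−0.050 to 0.046) and TRIB3 (−0.16 to 0.56). The replicate numbers are unbalanced in those fits, and the reason for the changes of sign was not tested. PSAT1 was at −0.0016 with YTHDF1 left out before scaling. The labels call the replicate numbers biological replicates and do not say whether equal numbers form a pair. The difference between the numbers in Control correlated with that in YTHDF1 at r = 0.875 over 17781 genes, which are not independent replicates. With the replicate block 192 genes were called between the vectors and 3.79% had an unadjusted p under 0.05, among them SESN2 and TRIB3. An adjusted p under 0.05 was reached by 10 genes in edgeR's fit with the block. In DESeq2's Wald test without the block 3 genes reached it, and no member was among either. In edgeR's fit with the block, SESN2 had a log2 fold change of 0.20 (SE 0.056) with an adjusted p = 0.985, and TRIB3 one of 0.18 (SE 0.052) with an adjusted p = 0.999. The number of members with an unadjusted p under 0.05 was 2 with the block and 0 without it. The SE with the block was 0.046 for ASNS and 0.063 for DDIT3, against 0.44 and 0.27 without it.

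Between the numbers 9202 genes were called, 2586 of them with a log2 fold change of 1 or more either way, and 6792 to 8726 with a library left out. Of the members 7 were called, 6 with DESeq2 size factors, the Wald test, limma-voom, no filter or YTHDF1 left out, 5 with no vector term, and 3 to 7 with a library left out. There were 4 without Control replicate 2, 3 without YTHDF1 replicate 2 and 5 without YTHDF1 replicate 1. DDIT3, ASNS and TRIB3 were called in every setting with all libraries and no fold threshold. The members' log2 fold changes ran from −0.83 to 0.64 in the main fit, so no member passed with the threshold of 1. The adjusted p of HSPA5 ran from 0.0171 to 0.318 in edgeR, DESeq2 and limma-voom over the settings with all libraries, and that of SESN2 from 0.00426 to 0.0686. CHAC1 ran from −0.010 to 0.098 with a library left out. The cause of the changes between settings was not tested.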
